A study of Homo sapiens with 4 samples.

Results

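The proteasome genes described here are the subunits, activators, inhibitor and assembly factors of the proteasome, taken by gene symbol: every listed gene named PSMA to PSMG followed by a number only, and POMP. The rule found 46 of the 29209 genes listed, and 43 of the 46 had enough counts to be tested. They comprise 7 genes of the alpha ring and 7 constitutive genes of the beta ring of the 20S core, 2 immunoproteasome beta genes, 6 ATPases and 11 non-ATPases of the 19S regulatory particle, 3 chaperones of 19S assembly, 5 activator and inhibitor genes and 5 chaperones of 20S assembly. The cells are HaCaT, an immortalised human keratinocyte line kept as an epidermal model. Lentivirus was used to make a line overexpressing TCN1, a secreted vitamin B12-binding protein (group TCN1_OE, 2 libraries), and this was compared with a line labelled negative control (group NC, 2 libraries). The labels give neither the content of the control virus nor whether the lines are clones or pools, and nothing in them says that replicates were grown as separate cultures. The p-values below may therefore reflect technical spread alone.

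The proteasome degrades proteins that carry a chain of ubiquitin. Its 20S core is a stack of alpha and beta rings with the proteolytic sites inside the beta rings, and the 19S particle binds the ubiquitin chain, removes it and threads the substrate in by means of a ring of ATPases. Interferon-gamma exchanges the 3 catalytic beta subunits for the immunoproteasome forms PSMB8, PSMB9 and PSMB10 and induces the activator PA28, made of PSME1 and PSME2, which changes the peptides offered to MHC class I. When proteasome capacity falls short, the transcription factor NFE2L1 raises the transcription of the subunit genes together.

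Depth differed by less than 2 times: 19973550 and 11593377 gene counts were deposited for NC replicates 1 and 2, and 16586500 and 14756073 for the TCN1_OE replicates, the order used for all values below. TCN1 itself, at 1.67 and 0.978 FPKM (fragments per kilobase, a count corrected for gene length and library depth) in NC, reached 68.3 and 56.6 FPKM in TCN1_OE, as the labels have it. All 8 fixed keratinocyte markers were above 1 FPKM, with sums of 6987 to 8409 FPKM per library. Of the fixed markers of other cells, 3 of 6 for fibroblasts, 5 of 6 for melanocytes, 2 of 4 for endothelium and 6 of 6 for leukocytes were listed. These listed markers summed to between 0.877 and 3.06 FPKM per list and library, and the sums leave out the rest. The leukocyte marker PTPRC, which defines its list, was listed at 0 in both NC libraries and at 0.0234 and 0.0088 FPKM in TCN1_OE.

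No proteasome gene was called between the lines by the test across all genes, but most stood slightly lower in TCN1_OE. With the quasi-likelihood test of edgeR, 0 of the 43 tested genes passed an adjusted p of 0.05 in either direction, where 0.212% of all 15113 genes tested were called lower and 0.285% higher. DESeq2 also called 0 of them, where it called 0.992% of the 11597 genes it adjusted lower and 0.957% higher. Limma called 0 as well, but made almost no calls at all (0.00% of 15113 genes lower and 0.00662% higher). At an unadjusted p under 0.05, 6 of the 43 stood lower, where 6.81% of all genes tested did, and 1 stood higher, where 6.00% did. The log2 fold change of TCN1_OE over NC was below 0 for 35 of the 43 genes, as it was for 49.7% of all genes, and of the 35 PSMC2, PSMD7 and PSMD8 stood just above 0 (0.0005 to 0.0029) with upper-quartile scaling. It turned sign for 12 of the 43 when 1 library was left out, and the median over the 43 with all libraries was -0.11 against 0.00 over all genes tested. Both TCN1_OE libraries lay below both NC libraries for 21 genes (48.8%, against 21.8% of all genes), and above them for 1 gene, PSMB10 (all genes 21.2%). Overlap was judged on log2 counts scaled by edgeR's TMM factors, which for PSMD10 and PSMD4 separates groups that touch in FPKM. In bulk RNA such as this, fewer cells with a transcript and less of it per cell cannot be told apart.

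Well expressed genes as a whole also leaned lower. Of the 33 proteasome genes averaging 10 FPKM or more, 32 had a log2 fold change below 0, with a median of -0.14. The same share over all 4215 tested genes of that level was 58.5%, with a median of -0.03. Groups did not overlap for 20 of the 33 with TCN1_OE lower (60.6%) and for 0 with TCN1_OE higher, where the shares over all genes of that level were 29.1% and 16.9%. An unadjusted p under 0.05 with TCN1_OE lower was found for 6 of the 33 (18.2%, against 11.3%). The 46 genes together took 0.690% and 0.672% of the counts in NC and 0.626% and 0.621% in TCN1_OE, so both TCN1_OE libraries were below both NC libraries. The median over all tested members was -0.06 without NC replicate 1 and -0.17 without NC replicate 2, so its size moved with the control library that was kept.

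**Figure D1:**
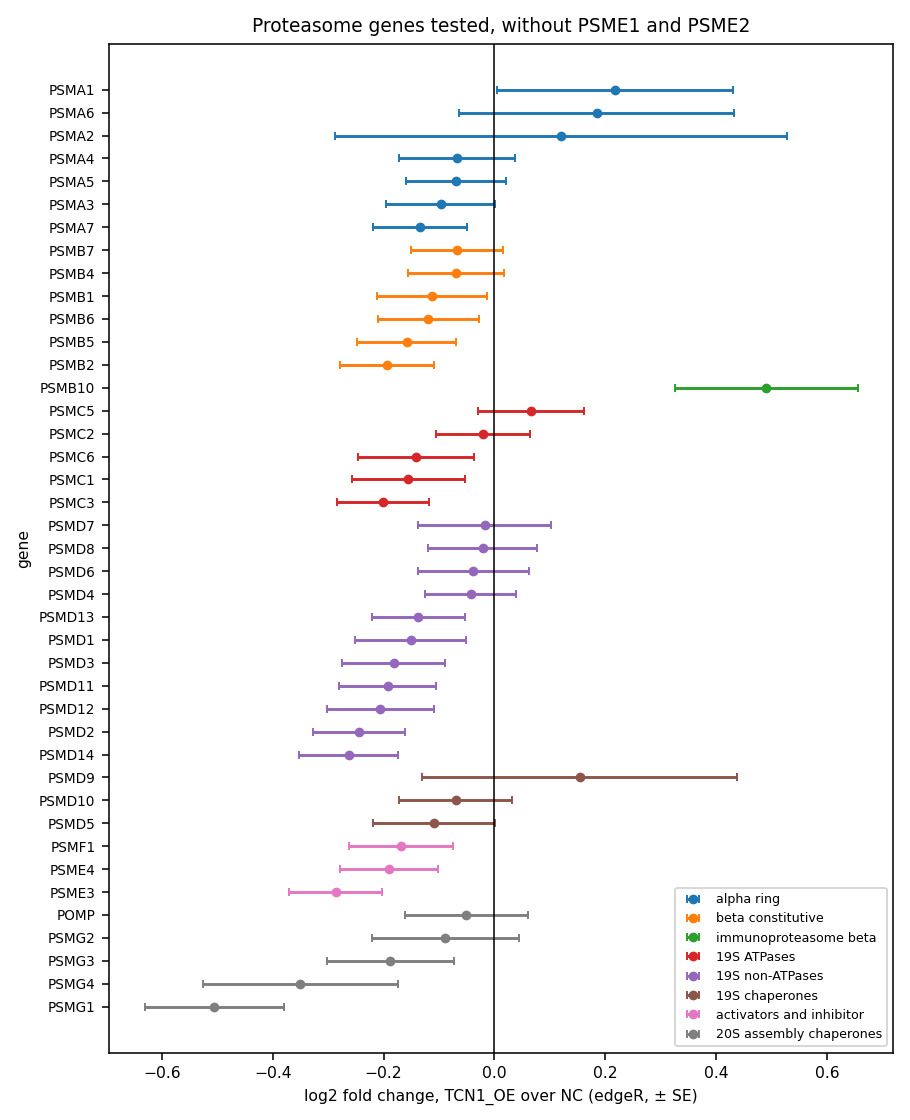
Log2 fold change of TCN1_OE over NC (x axis, edgeR estimate with bars of ± 1 SE, all 4 libraries) for each tested proteasome gene besides PSME1 and PSME2 (y axis), coloured by class. Most points lie between 0 and -0.3; PSMB10 stands alone at 0.49 and PSMG1 lies farthest to the left at -0.51.

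In the 20S core, all 10 genes of at least 10 FPKM had a log2 fold change below 0, from -0.07 to -0.19 with a median of -0.105, and none passed. PSMA7, an alpha ring subunit and the most abundant particle gene per length, had 212 and 221 FPKM in NC and 193 and 202 FPKM in TCN1_OE. Its libraries did not overlap, and its log2 fold change was -0.13 ± 0.08 (SE; edgeR adjusted p 0.554). The alpha subunit PSMA3 had 56.4 and 48.6 FPKM in NC and 51.1 and 47.4 in TCN1_OE, which overlap. PSMA4 and PSMA5, also of the alpha ring, stood at -0.07 each, with overlapping libraries. The remaining alpha genes PSMA1, PSMA6 and PSMA2 were the 3 with positive values, at 0.22 ± 0.21, 0.18 ± 0.25 and 0.12 ± 0.41, and were also the 3 with low counts (below). The median of the 7 alpha genes was -0.07, and 0.06 without NC replicate 1.

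The 3 constitutive catalytic subunits are PSMB6, PSMB7 and PSMB5, with caspase-like, trypsin-like and chymotrypsin-like activity. PSMB5 had 92.1 and 88.6 FPKM in NC and 80.5 and 81.8 FPKM in TCN1_OE, a log2 fold change of -0.16 ± 0.09. PSMB6 had 115 and 119 FPKM in NC and 104 and 112 FPKM in TCN1_OE, and stood at -0.12 ± 0.09. PSMB7 had 152 and 149 FPKM in NC and 142 and 146 FPKM in TCN1_OE, and stood at -0.07 ± 0.08. In all 3 the TCN1_OE libraries lay below the NC libraries, and the edgeR adjusted p ran from 0.497 to 0.792. Among the noncatalytic beta subunits, PSMB2 had 52.3 and 49.1 FPKM in NC and 45.7 and 43.1 FPKM in TCN1_OE. Its log2 fold change of -0.19 ± 0.09 had the smallest edgeR p of the core, 0.0467 unadjusted and 0.380 adjusted. PSMB1 and PSMB4 stood at -0.11 ± 0.10 and -0.07 ± 0.09 with overlapping libraries.

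The immunoproteasome gene PSMB10 was the 1 member with both TCN1_OE libraries above both NC libraries. The gene (ENSG00000205220, GRCh38 chromosome 16, 67934502 to 67937087, minus strand) encodes the immunoproteasome counterpart of PSMB7. NC gave it 242 and 137 counts (7.45 and 7.27 FPKM), TCN1_OE 266 and 261 (9.86 and 10.9 FPKM). The log2 fold change was 0.49 ± 0.16, or 1.40-fold, which did not pass over all genes (edgeR unadjusted p 0.0143, adjusted p 0.246). Over the alternatives run its log2 fold change lay between 0.40 and 0.57. As a share of the summed FPKM of PSMB10 and PSMB7, PSMB10 was 4.66% and 4.64% in NC and 6.49% and 6.91% in TCN1_OE. The means were 4.65 ± 0.013% and 6.70 ± 0.30% (SD, n = 2 each). The groups differ by more than the spread of their libraries, but an exact two-sided permutation test of 2 against 2 cannot go below 0.33. Other genes cover 34.8% of the exonic bases of PSMB10 in GENCODE 29, and because the library kit does not mark strand, reads there cannot be told apart.

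PSMB9, the counterpart of PSMB6, had 1 and 2 counts in NC and 0 in both TCN1_OE libraries. A count of 0 allows up to 0.0542 and 0.0609 FPKM in the TCN1_OE libraries (3 counts per library; counting error only), and no fold is given because all libraries are at or under that floor. Its listed neighbours within 100 kb in the MHC region were below 1 FPKM in 3 of 3 cases, among them the peptide transporter TAP1 with 2 counts in NC replicate 1 and 0 in the other 3 libraries. PSMB8, the third immunoproteasome subunit, was not analysed here, nor were the tissue-restricted subunits PSMA8 of testis and PSMB11 of thymus. Any statement about the immunoproteasome in these files therefore rests on PSMB10 alone.

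The 19S regulatory particle leaned lower in the same way. Of its 16 tested genes within the symbol rule, 15 had a log2 fold change below 0, with a median of -0.15. The core had 10 of 13 tested genes below 0 and a median of -0.07. Over genes of at least 10 FPKM the medians were -0.15 for 15 particle genes and -0.105 for 10 core genes. The difference between core and regulatory particle was not tested. Of the ATPases, which form the unfolding ring, PSMC3 had 101 and 102 FPKM in NC and 89.4 and 88.0 FPKM in TCN1_OE. Its groups did not overlap, with a log2 fold change of -0.20 ± 0.08 (edgeR unadjusted p 0.0366, adjusted p 0.346). PSMC1 had 14.7 and 13.6 FPKM in NC and 13.4 and 12.1 FPKM in TCN1_OE, and exons of NRDE2 lie over 75.8% of its own. PSMC6 had 19.4 and 18.5 FPKM in NC against 18.9 and 15.6 FPKM, which overlap, and PSMC2 stood at -0.02 ± 0.08. PSMC5 was the single gene of these 16 on the other side, at 0.07 ± 0.10. The ATPase median of -0.14 was -0.03 without TCN1_OE replicate 2.

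All 11 non-ATPases stood below 0, with a median of -0.15, except that PSMD7 and PSMD8 were at 0.0029 and 0.0005 with upper-quartile scaling. Groups did not overlap for 7 of the 11 (63.6%), against 21.8% of all genes and 29.1% of those of at least 10 FPKM. PSMD14, the deubiquitinase that cleaves the ubiquitin chain off the substrate, had 22.2 and 21.6 FPKM in NC and 19.1 and 17.6 FPKM in TCN1_OE. Its log2 fold change was -0.26 ± 0.09 (edgeR unadjusted p 0.0151, adjusted p 0.250). PSMD2, the large scaffold subunit that docks ubiquitin shuttle proteins, had 134 and 140 FPKM in NC and 113 and 118 FPKM in TCN1_OE, a log2 fold change of -0.24 ± 0.08 with the same adjusted p. PSMD11, a lid subunit, had 41.1 and 37.4 FPKM in NC and 35.5 and 33.4 FPKM in TCN1_OE and stood at -0.19 ± 0.09 (edgeR adjusted p 0.396). In each of these 3 genes every TCN1_OE library was below every NC library. The lid subunits PSMD12, PSMD3 and PSMD13 stood at -0.21 ± 0.10, -0.18 ± 0.09 and -0.14 ± 0.08, also without overlap. PSMD1, the other large scaffold, stood at -0.15 ± 0.10. The ubiquitin receptor PSMD4 and the lid subunits PSMD6, PSMD8 and PSMD7 were nearest to 0, from -0.04 to -0.02, and of these 4 only PSMD4 had groups that did not overlap.

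The chaperones that assemble the 19S base had a median of -0.07, the same as the alpha ring to this precision. For PSMD5 the values were 25.2 and 21.7 FPKM in NC and 23.3 and 20.3 FPKM in TCN1_OE, and PSMD10, also called gankyrin, had 28.7 and 27.5 against 27.7 and 26.1 FPKM. Their log2 fold changes were -0.11 ± 0.11 and -0.07 ± 0.10, within about 1 SE of 0. PSMD9 had 76 and 32 counts in NC and 69 and 48 in TCN1_OE and stood at 0.15 ± 0.28. Their median was 0.00 without NC replicate 1 and -0.03 without TCN1_OE replicate 2.

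**Figure D2:**
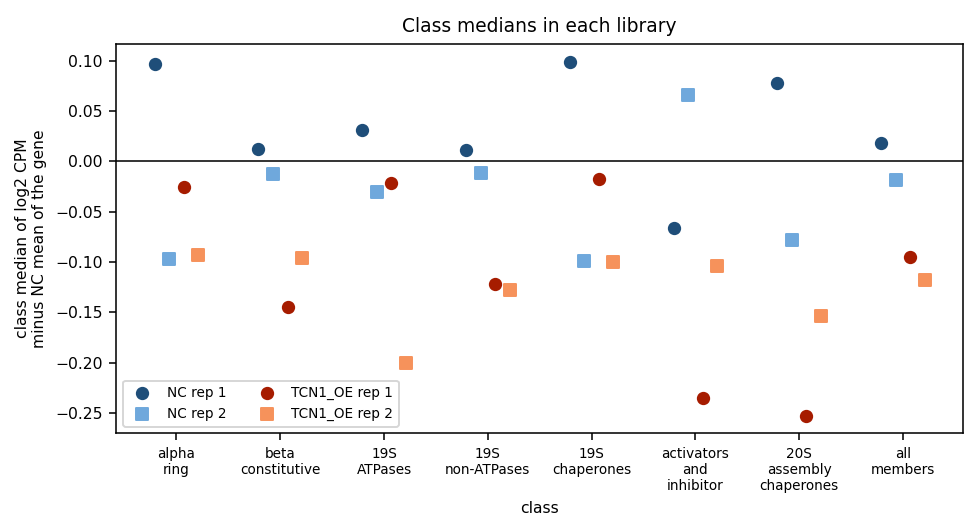
Median over the tested genes of each class (x axis) of the log2 CPM minus the NC mean of the same gene (y axis), 1 point per library. For beta subunits, non-ATPases, activators with the inhibitor, 20S assembly chaperones and all members, both TCN1_OE libraries lie below both NC libraries, while the groups overlap in the alpha ring, the ATPases and the 19S chaperones.

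Among the activators, the PA28 genes PSME1 and PSME2 differed far more between libraries than the others, and for PSME1 the difference lay in 1 library. PSME1 (ENSG00000092010, GRCh38 chromosome 14, 24136158 to 24138967, plus strand) encodes the alpha subunit of PA28. NC gave 38 and 35 counts (1.07 and 1.70 FPKM) and TCN1_OE gave 31 and 726 (1.05 and 27.7 FPKM). TCN1_OE replicate 2 alone was high, at 26.3 times the FPKM of TCN1_OE replicate 1, while TCN1_OE replicate 1 was at the level of the controls. The edgeR log2 fold change of 3.42 ± 2.20 therefore had an adjusted p of 0.668. Without TCN1_OE replicate 2 the value was -0.39, and without TCN1_OE replicate 1 it was 4.37. In each of these fits the lone TCN1_OE library is assumed to vary like the NC libraries.

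PSME2 (ENSG00000100911, chromosome 14, 24143362 to 24147570, minus strand), the beta subunit of PA28, lies in the same stretch of the chromosome and varied in a different order. NC gave 13 and 377 counts (0.182 and 9.08 FPKM) and TCN1_OE gave 184 and 451 (3.10 and 8.53 FPKM). NC replicate 1 was the low library here, with NC replicate 2 at 50.0 times its FPKM, and the log2 fold change was 0.39 ± 2.05 (edgeR adjusted p 0.964). It was -0.66 without NC replicate 1, -0.55 without TCN1_OE replicate 2 and 4.99 without NC replicate 2, where the remaining control is the low library. PA28 holds its alpha and beta subunits in 1 ring, yet the ratio of PSME1 to PSME2 FPKM was 5.90 and 0.187 in NC and 0.340 and 3.25 in TCN1_OE.

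The genes around this pair were almost empty of counts. Of the 15 other listed protein-coding genes within 100 kb of the pair (chromosome 14, 24036158 to 24247570, by GENCODE 29), 14 had a mean below 1 FPKM, or 93.3%, against 37.9% of all 15818 listed protein-coding genes. Before that stretch, from 23536158 to 24036157, the share was 71.4% of 7 genes, and after it, from 24247571 to 24747570, it was 91.7% of 12 genes. NEDD8, a ubiquitin-like protein that activates cullin ligases, had 1 and 0 counts in NC and 3 and 2 in TCN1_OE. IRF9, the DNA-binding part of the type I interferon response complex, had 1, 1, 1 and 2 counts in the 4 libraries, and the ubiquitin ligase gene RNF31 had 1 count in NC replicate 1 and 0 elsewhere. Exons of another gene cover 0.505% of PSME1 and 8.18% of PSME2. The part that read assignment in this stretch plays in the PSME1 and PSME2 values was not tested.

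Genes that stand apart in 1 library were rare. By a criterion set after the PSME1 values were seen, a library with at least 100 counts and at least 10-fold above each of the other 3 after scaling to depth, 12 of the 29209 genes qualified: 5 in NC replicate 1, 6 in NC replicate 2 and 1, PSME1, in TCN1_OE replicate 2. NOP9, which had 274 counts in NC replicate 1 and 8, 16 and 7 in NC replicate 2 and the TCN1_OE libraries, lies on chromosome 14 as well, as does the DNA repair gene APEX1, with 575 counts in NC replicate 2 and 42, 44 and 37 in NC replicate 1 and the TCN1_OE libraries. The chaperone gene CANX of MHC class I folding was another, with 1500 counts in NC replicate 1 and 11, 21 and 25 in the others. By the mirrored criterion, 1 library at least 10-fold below the other 3, PSME2 was the 1 gene found.

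**Figure D3:**
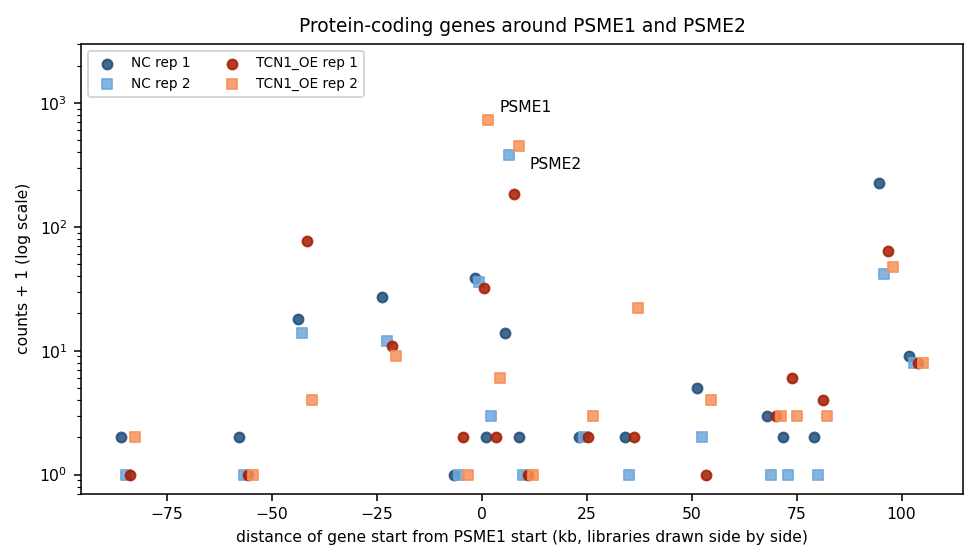
Counts plus 1 on a log axis (y) of each listed protein-coding gene within 100 kb of PSME1 and PSME2, by distance of the gene start from that of PSME1 (x, kb; the 4 libraries are drawn side by side). Besides PCK2 and GMPR2, the neighbours have 26 counts or fewer in every library, and PSME1 stands at 726 counts in TCN1_OE replicate 2 only.

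The other activators were steady between replicates. PSME3, the nuclear PA28 gamma activator, had 42.0 and 42.7 FPKM in NC and 34.7 and 34.9 FPKM in TCN1_OE. The groups did not overlap, and the log2 fold change of -0.29 ± 0.08 had an edgeR unadjusted p of 0.00687 and an adjusted p of 0.188. PSME4, or PA200, an activator linked to acetylated histone turnover, had 17.7 and 17.2 FPKM in NC and 16.1 and 14.6 FPKM in TCN1_OE, and stood at -0.19 ± 0.09 (adjusted p 0.411). PSMF1, an inhibitor of the core in vitro also known as PI31, had 17.9 and 19.4 FPKM in NC and 16.0 and 17.3 FPKM in TCN1_OE, and stood at -0.17 ± 0.09 (adjusted p 0.492). The median of the 5 genes, -0.17, was -0.31 without TCN1_OE replicate 2, and -0.11 without NC replicate 2 or TCN1_OE replicate 1.

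**Figure D4:**
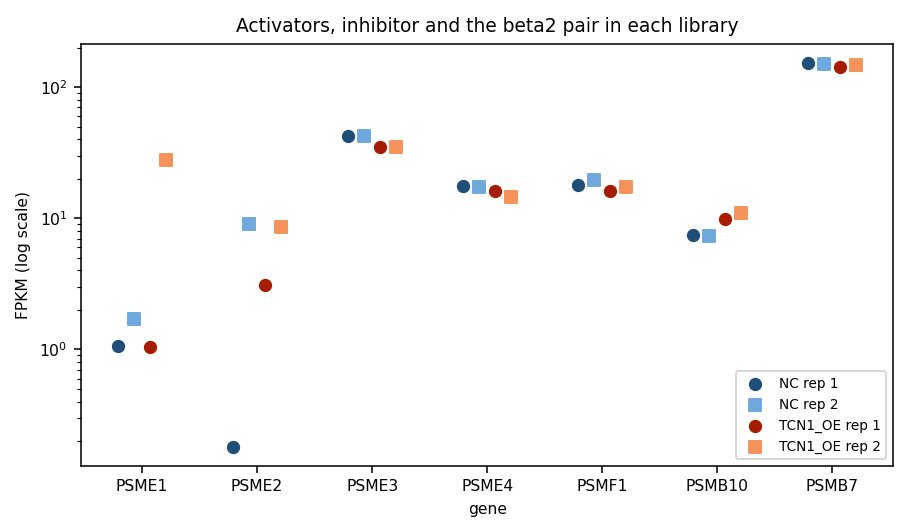
FPKM on a log axis (y) of the activators, the inhibitor PSMF1 and the pair PSMB10 and PSMB7 (x), 1 point per library. PSME1 is near 1 FPKM in 3 libraries and 27.7 in the fourth, PSME2 is 0.182 in NC replicate 1, and the other genes are close within each group.

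The chaperones of 20S assembly held the member with the smallest p. PSMG1, which pairs with PSMG2 to build the alpha ring, lies on chromosome 21 (ENSG00000183527, GRCh38, 39174769 to 39183851, minus strand), where GENCODE 29 puts no other exon over it. NC gave 762 and 392 counts (17.7 and 15.7 FPKM) and TCN1_OE gave 410 and 387 (11.5 and 12.2 FPKM). Both TCN1_OE libraries were below both NC libraries, by a log2 fold change of -0.51 ± 0.13, or 0.705-fold, with an edgeR unadjusted p of 0.00257 and an adjusted p of 0.128. With no filter on low counts it was -0.52 and was called (edgeR adjusted p 0.0194). That setting called more genes in all, 275 lower and 200 higher of 29209, against 32 and 43 of 15113 in the reported test. PSMG4 had 1.33 and 1.43 FPKM in NC and 1.01 and 1.16 FPKM in TCN1_OE and stood at -0.35 ± 0.18. Its partner PSMG3 had 21.4 and 20.8 against 17.9 and 19.3 FPKM and stood at -0.19 ± 0.12, so both genes of this pair showed groups without overlap. PSMG2, the partner of PSMG1, stood at -0.09 ± 0.13 and POMP, which completes the core, at -0.05 ± 0.11, both with overlapping libraries.

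Some subunits were listed at levels far from those of their partners, although each is present at 1 copy per ring or particle. Of the 31 genes of the 20S rings and the 19S particle within the symbol rule, 27 had means from 4.81 to 207 FPKM with a median of 42.8. The other 4 were below 1 FPKM: PSMB3, PSMC4, PSMA2 and PSMA6. The beta subunit gene PSMB3 had 2 and 0 counts in NC and 0 and 1 in TCN1_OE, and the ATPase gene PSMC4 had 0 and 3 counts in NC and 0 in both TCN1_OE libraries. A count of 0 allows up to 0.0709 and 0.0797 FPKM for PSMC4 in TCN1_OE. PSMA2 had 106 and 24 counts in NC and 52 and 77 in TCN1_OE, and PSMA6 had 74 and 48 against 80 and 60. PSMA1, at 5.42 and 3.42 FPKM in NC and 5.08 and 5.33 FPKM in TCN1_OE, and PSMD9, at 0.398 FPKM on average, were low as well.

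Overlap and neighbours were as follows, for low and for well expressed members. Exons of other genes cover 34.6% of PSMA2, 24.7% of PSMA1, 22.6% of PSMD9 and 14.1% of PSMA6, and 11 of the 46 genes in all have more than 10% of their exonic bases so covered. PSMB3 and PSMC4 have 0%, but 4 of 5 and 2 of 2 of their listed protein-coding neighbours within 100 kb were below 1 FPKM. Well expressed members had such values too: other exons cover 30.7% of PSMD7 and 19.5% of PSMC5, at means of 25.1 and 25.4 FPKM, and all listed coding neighbours of PSMD1 (2 of 2) and POMP (1 of 1) were below 1 FPKM. Whether these counts reflect transcript levels was not tested, nor was the part of reads shared with pseudogene copies, since the handling of multiply mapped reads is unknown. The gene lengths implied by the deposited FPKM ran from 1168 bp for PSMB3 to 15795 bp for PSMD1, and were over 2 times the GENCODE 29 exonic length for 4 genes, so order by FPKM depends on those lengths too.

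Promoter matches are shown for PSMG1, the member with the lowest p, for PSME1 and PSME2, which of the tested members spread most between libraries, and for the 3 members that hold the same interferon-type core, since NFE2L1 binds the antioxidant response element and interferon factors bind the interferon-stimulated response element. Sequences are the RefSeq promoters of GRCh38.p14, which matched 40 of the 46 genes by symbol with 48 promoters. The 250 bases before each gene start were searched on both strands. The letters TGACNNNGC, the core of the antioxidant response element, occurred in 13 of the 48 promoters (27.1%) against 10.9% of all 35116 promoters. The letters GAAANNGAA, a core of the interferon-stimulated response element, occurred in 6 of 48 (12.5%) against 6.88% of all. Both cores occurred in PSME2 and in PSMA4. Each line gives a match with up to 10 bases on either side, 5′ to 3′ on the gene's strand, with the match in capitals. The first 3 are antioxidant response element cores, and the last 3 are interferon-stimulated response element cores.
PSMG1, chr21:39183616-39183644, minus strand: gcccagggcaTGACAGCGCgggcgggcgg
PSME1, chr14:24136098-24136126, plus strand: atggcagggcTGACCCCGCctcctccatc
PSME2, chr14:24146767-24146795, minus strand: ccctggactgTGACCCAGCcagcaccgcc
PSMB10, chr16:67936853-67936881, minus strand: gggtaaaggcGAAAGCGAAagcaggaagt
PSME2, chr14:24146620-24146648, minus strand: cctggggagtGAAAGCGAAagcccgggcg
PSMG4, chr6:3258904-3258932, plus strand: ttccggggccGAAAGCGAAagcgcgctcg

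In PSMB10, PSME2 and PSMG4 the interferon-type core has the same 9 letters and starts 21, 28 and 33 bases before the gene start. None of these 3 genes passed, and differences among them were not tested: PSMB10 stood at 0.49 ± 0.16, PSME2 at 0.39 ± 2.05 and PSMG4 at -0.35 ± 0.18. The other genes with the antioxidant core were PSMA4, PSMB3, PSMB9, PSMC5, PSMD12, PSMD3, PSMD5, PSMD9, PSME4 and PSMG2, and the other genes with the interferon-type core were PSMA4, PSMB4 and POMP. Other searches gave the CCAAT box in 37.5% of member promoters against 32.0% of all, the ETS letters CCGGAAG in 22.9% against 8.52%, the gamma-activated site letters TTCNNNGAA in 10.4% against 6.57%, and the cyclic AMP element TGACGTCA in 0 of 48 against 1.65%. Some of these letters can overlap one another. A match is a description of these letters only.

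Genes that act with the proteasome showed no call either. Of 40 tested genes in the 5 lists, 0 passed edgeR over all genes, where 0.212% of all genes were called lower and 0.285% higher. At an unadjusted p under 0.05, 1 stood lower and 3 higher, against 6.81% and 6.00% of all genes, so these counts are near the background. The median was -0.02, and DESeq2 and limma called 0 as well. Among the 6 genes of proteasome gene transcription, NFE2L1 had 108 and 115 FPKM in NC and 126 and 135 FPKM in TCN1_OE. Its groups did not overlap, with TCN1_OE higher by 0.23 ± 0.09 on the log2 scale (edgeR unadjusted p 0.0277, adjusted p 0.312), opposite in sign to most subunit genes. DDI2, the protease that activates NFE2L1, stood at -0.19 ± 0.11 and NGLY1, the glycanase that acts on it, at -0.10 ± 0.14. Of the 8 reversible or late-joining partners of the 26S particle, the deubiquitinase UCHL5 had 12.6 and 11.7 FPKM in NC and 10.7 and 8.50 FPKM in TCN1_OE, a log2 fold change of -0.34 ± 0.12 (edgeR adjusted p 0.267). The deubiquitinase USP14 and the thioredoxin-like TXNL1 stood at -0.17 ± 0.10 and -0.11 ± 0.12.

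Of the 10 genes that deliver or unfold substrates, 8 were below 0, with a median of -0.12; the shuttle factor UBQLN1, the VCP cofactor UFD1 and the VCP-binding FAF1 each stood at -0.16, and VCP itself at 0.02 ± 0.08. The 6 genes of ubiquitin and its activation had a median of -0.01, and the polyubiquitin gene UBB stood at 0.22 ± 0.16 with overlapping libraries. In the MHC class I list, 8 of 10 tested genes were above 0, with a median of 0.11. HLA-B had 18.2 and 19.7 FPKM in NC and 21.9 and 27.2 FPKM in TCN1_OE, at 0.37 ± 0.12 (edgeR adjusted p 0.237), and B2M, the light chain, had 88.1 and 83.3 against 106 and 93.6 FPKM, at 0.21 ± 0.09. The interferon regulatory factor IRF1 stood at 0.22 ± 0.11 with groups that did not overlap. PSMB10 thus shared its direction with HLA-B, B2M and IRF1, and none of these passed over all genes.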

How the data were processed

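PolyA RNA-seq of 4 HaCaT libraries (2 NC, 2 TCN1_OE, grouped by sample title) was used. Per the labels' protocols, the kit was NEBNext Ultra, whose libraries keep no strand information. Per the submitters' processing notes, HISAT2 and HTSeq 0.13.5 were used with GRCh38; the annotation used, and how HTSeq treated strand and multiply mapped reads, are not stated there. Raw counts and FPKM per gene were deposited by the authors, per the file headers; FPKM divides the count by gene length and by the library's count total.

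The deposited counts were tested across all genes with edgeR 4.0.16 in R 4.3.3 (quasi-likelihood, robust, TMM, filterByExpr with a minimum count of 10, group as the only term), with Benjamini-Hochberg adjustment over 15113 genes and a threshold of 0.05. The SE is the size of the log2 fold change divided by the square root of F. Groups were said not to overlap on TMM log2 CPM. Alternatives used DESeq2 1.42.0 and limma 3.58.1 on log2(FPKM + 0.5), with pseudocounts of 0.1 and 1 as well, other scalings (DESeq2's factors, upper quartile) and filters (none, or a mean of at least 1 FPKM), a replicate block, and each library left out. The edgeR step was tested on simulated data with 2 libraries per group. It recovered 26 of 67 genes changed 1.5-fold, 44 of 67 changed 2-fold and 58 of 66 changed 4-fold, with 26 false calls. False calls were thus a larger share of all calls there than the threshold of 0.05. The calls counted over all genes may therefore hold more errors than that threshold states. Smaller changes were not simulated, so the absence of a call does not show that a gene was unchanged. Gene positions are from GENCODE 29, matched by Ensembl ID.

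Members, classes and lists were chosen with earlier results of these data known. Values per library are given for PSME1, the immunoproteasome genes with their counterparts, the 3 genes of each class with the smallest p and those left out by the filter; from the other lists, up to 3 by p, of which some are not reported here. PSME2 and others were named after their values were seen. Lists outside the proteasome rule held 43 listed genes, 40 of them tested. Promoter motifs were searched after the values were seen. Floors of 3 counts cover counting error only.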

Additional observations from a re-analysis of the deposited data

How the results depend on the processing

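In 10 of 13 alternatives, as in the reported test, 0 proteasome genes were called in either direction. The exceptions were PSMG1, the 1 gene called lower with no filter on low counts, PSME1, the 1 called higher without TCN1_OE replicate 1 (0 to 1 when each library was left out), and the replicate block. With the replicate number as a block, 18 of the 43 tested proteasome genes were called lower and 1 (PSMB10) higher. Of the 40 tested other pathway genes, 7 were called lower and 6 higher. Over all 15113 genes tested, 1655 were called lower and 1216 higher in that fit. Same-numbered libraries deviated together with r = 0.15 over 15113 genes. No label says whether they share a culture or a day, and with 2 pairs this cannot be told from the counts. Leaving out 1 library gave 0 to 2 other pathway genes called lower (CANX and HLA-E without NC replicate 2) and 0 to 1 higher (HLA-B without TCN1_OE replicate 1). The median over all members was -0.1335 with no filter and ran from -0.17 to -0.0615 with each library left out. The non-ATPase median was -0.13 with upper-quartile scaling, -0.1686 with no filter, -0.1385 over genes of at least 1 FPKM and -0.1355 by limma on log2(FPKM + 1), and ran from -0.1531 to -0.1264 over the left-out libraries. Those ranges were -0.12 to 0.0645 for the alpha ring, -0.15 to -0.10 for constitutive beta genes, -0.20 to -0.026 for ATPases and -0.31 to -0.11 for activators with the inhibitor. With a library left out the log2 fold change turned sign for 12 of the 43 tested genes. The values were 0.1118 for POMP, 0.0645 for PSMA4, 0.0619 for PSMG2, 0.0117 for PSMC2 and 0.1383 for PSMD7 without NC replicate 1 (PSMD7 also 0.0137 without TCN1_OE replicate 2), -0.3478 and -0.2956 for PSMA2 without NC replicate 2 and TCN1_OE replicate 2, and 0.0061 and 0.0255 for PSMD8 without NC replicate 2 and TCN1_OE replicate 1. The ranges of the other 5 were: PSME1 -0.39 (without TCN1_OE replicate 2) to 4.37; PSME2 -0.66 (without NC replicate 1; -0.55 without TCN1_OE replicate 2) to 4.99; PSMA1 -0.0557 (without NC replicate 2) to 0.59; PSMA3 -0.19 to 0.0056 (without NC replicate 1); PSMD9 -0.0342 (without NC replicate 2; -0.0253 without TCN1_OE replicate 1) to 0.41. Except for the left-out libraries, the cause was not tested. Where a group kept 1 library, it was assumed to vary like the other group. Low counts limit precision for PSMB3, PSMC4 and PSMB9 (0 to 3 per library, not tested) and for PSMA2, PSMA6 and PSMD9 (24 to 106).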
